A study of Homo sapiens with 9 samples.

Results

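The TGF-beta and BMP signalling genes described here are a list of 47 genes taken from textbook knowledge of the pathway: ligands, receptors and co-receptors, SMAD proteins, latency proteins and antagonists, intracellular regulators and target genes. Of these, 46 had a transcript of their own on the array, out of 22468 genes in all, and BMPR1A was not analysed here. Expression was measured in cells labelled as the 22Rv1 prostate cancer line, under 3 conditions with 3 arrays each. KD cells carried an shRNA directed at SSX2, a cancer-testis antigen, SCR cells carried a scramble shRNA, and both had been transfected with lipofectamine and kept under neomycin. WT cells were the untransfected line. The labels call arrays of a group technical replicates, so the p-values reflect technical spread alone, and whether the KD and SCR lines are single clones is not stated in the sources used.

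TGF-beta ligands are secreted in a latent form, and once released they bring together type II and type I receptor kinases at the cell surface. The type I receptor then phosphorylates receptor SMADs, SMAD2 and SMAD3 for TGF-beta and activin and SMAD1, SMAD5 and SMAD9 for BMPs, which enter the nucleus with SMAD4 and change transcription. In normal prostate epithelium TGF-beta restrains growth, and BMP signalling is known for its part in prostate development and in bone metastases of prostate cancer.

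Levels are RMA log2 intensities, in which a difference of 1 is a doubling, and a level of 1 gene was not set against that of another. A gene passed where limma's moderated test gave a Bonferroni-adjusted p under 0.05 over all 67528 transcripts, and every p below is adjusted in that way unless stated otherwise. "Rose" and "fell" are used only of genes that passed. Array medians over transcripts lay between 5.41 and 5.50, and the array medians of 23 background probe sets between 3.60 and 3.81. Means of single background sets over the 9 arrays ran from 1.93 to 12.09, so these medians mark a middle and not a sharp floor. Changes of genes near background are understated. The labels give an average RNA integrity number of 2.5, a value typical of degraded RNA.

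The KD arrays stood apart from both controls in ways that reach beyond this pathway. The 2 transcripts that SSX2 shares with SSX2B averaged 5.13 and 5.05 in KD, 11.94 and 11.71 in SCR, and 11.92 and 11.67 in WT, so the targeted transcripts were low in the group labelled knockdown. Among prostate luminal genes, 6 of 9 measured were lower in KD and 0 higher, and their summed linear intensity was 4610 to 4980 in KD against 7530 to 7710 in SCR and 7080 to 7270 in WT. KLK2, a kallikrein of luminal cells, averaged 5.52 in KD against 9.44 in SCR and 8.39 in WT. HOXB13, a prostate homeobox factor, averaged 6.44, 8.77 and 8.99. FOLH1, the gene of prostate-specific membrane antigen, shares its transcript with FOLH1B, and that transcript was at 4.0 in KD, 10.26 in SCR and 9.34 in WT, so in KD it was close to background. SLC45A3, another luminal gene, shares its transcript with ELK4, and that transcript did not pass against either control. Its group means were 7.19 (KD), 7.54 (SCR) and 7.52 (WT), a log2 difference of -0.35 against SCR (adjusted p = 0.92 in limma). Neither shared transcript is among the 9 measured genes. KRT8 and KRT18, keratins of luminal epithelium, did not pass, at 11.17 and 10.95 in KD against 11.09 and 10.85 in SCR. As the brightest of the 9 they weigh most in the luminal sums, which therefore understate the fall of the 6 genes. TRPM8, also of the luminal list, did not pass either, at 4.20 in KD, 4.21 in SCR and 4.23 in WT. Of 18 measured genes chosen as typical of less luminal prostate cancer lines, such as CAV1, VIM and AXL, 16 were higher in KD and 0 lower. The study itself names most of them from these arrays, so the count is no independent evidence of a direction. Their summed intensity was 19600 to 20000 in KD, 1880 to 1930 in SCR and 1750 to 1860 in WT. A fibroblast list had 1 of 7 genes lower (sums of 398 to 423, 484 to 490 and 473 to 503 in KD, SCR and WT) and a leukocyte list 1 of 5 higher, CD68 (608 to 657, 206 to 210 and 200 to 224). PTPRC, the leukocyte common antigen, stayed at 3.06 in KD and 3.10 in SCR, below the background medians. Several markers of the labelled line were thus low or near background on the KD arrays. The study's methods state that the identity of its cell lines was checked, without saying whether this covered the transfected lines. Whether the KD cells are still that line was not tested here. Nor was the part of these shifts in the results below tested, and in bulk RNA fewer cells of a kind and less RNA per cell cannot be told apart.

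In KD against SCR, 9 of the 46 signalling genes rose and 13 fell, and 24 did not pass. Over all transcripts 4.08% were higher and 4.68% lower in this comparison, and over the brightest transcript of each gene 7.78% and 7.6%. Against WT, 9 rose and 11 fell, where 4.13% and 4.49% of all transcripts and 7.83% and 7.45% of genes did. The share of signalling genes that passed was therefore 47.8% and 43.5%, against 15.4% and 15.3% of genes and 8.77% and 8.61% of all transcripts. The list was chosen with earlier results of these data known, so its larger share is no independent evidence about the pathway. It also held few dim genes: no group mean reached 5.47 for 3 of the 46, against 6065 of 22468 genes and 31683 of 67528 transcripts. Both comparisons share the KD arrays and are not independent. All 9 genes that rose against SCR and 11 of the 13 that fell did so against WT too, and SMAD6 and SMAD7 passed against SCR alone. Against SCR, the median fold change of the list was -0.10 on the log2 scale and that of all transcripts -0.06, whereas the median size without sign was 0.57 in the list, 0.15 in all transcripts and 0.18 in all genes. Fold changes against SCR that did not pass ranged from -0.65 to 0.39.

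The number of calls depended on the rule. All KD arrays lay above all SCR arrays for 15 of the 46 genes and below them for 24, where 18.3% and 32% of all transcripts did, and against WT for 14 and 22 (17.6% and 30.8%). The SCR arrays in turn lay above the WT arrays for 14 genes and below them for 8 (9.78% and 8.84%). With Benjamini-Hochberg adjustment 13 rose and 20 fell against SCR (14.8% and 22.7% of all transcripts), 14 and 22 against WT (14.8% and 23.7%), and 4 were higher and 0 lower in SCR than WT (1.11% and 0.709%). With the one-way ANOVA that the methods name, run on the arrays of the compared groups alone, TGFBR2 and SMAD3 rose and PMEPA1 fell against SCR (0.382% and 0.363% of all transcripts). It gave 2 and 1 against WT (0.27% and 0.262%) and 0 and 0 between SCR and WT (0.00296% and 0.00889%). Over all transcripts this ANOVA called 258 higher and 245 lower in KD than SCR. The study reported far more in each direction, so the ANOVA as run here did not reproduce its calls.

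**Figure D1:**
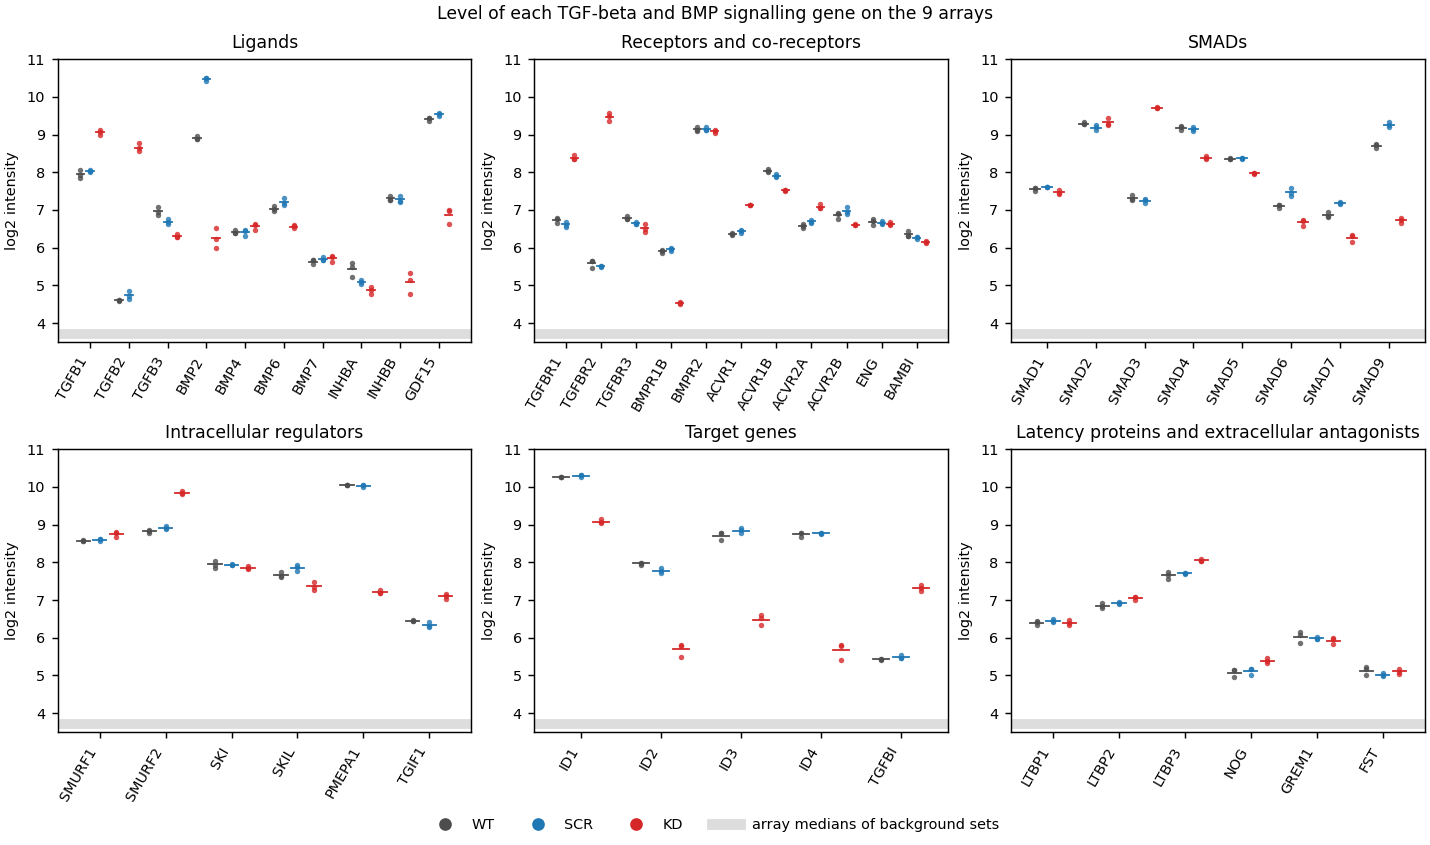
Log2 intensity (vertical axis) of each of the 46 genes on each array, by role, with WT in grey, SCR in blue and KD in red. Points are arrays, short lines group means, and the grey band spans the array medians of the background sets, 3.60 to 3.81. TGFB2, TGFBR2 and SMAD3 sit far higher in KD, and BMP2, PMEPA1 and ID4 far lower, while the latency proteins and antagonists lie close together in all 3 groups.

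Among the 10 ligands, 2 rose and 3 fell. TGFB2, 1 of the 3 TGF-beta isoforms, read 8.77, 8.63 and 8.55 on the KD arrays, 4.71, 4.65 and 4.84 on the SCR arrays, and 4.59, 4.61 and 4.60 on the WT arrays. Every KD array was far above every control array, and the controls lay not far above background. The rise was 3.91 on the log2 scale, or 15.1-fold (SE 0.068, adjusted p = 2.2e-08 in limma), against SCR and 4.05 (adjusted p = 1.6e-08) against WT. TGFB1, the most widely expressed isoform, read 9.00, 9.13 and 9.06 in KD, 8.01, 8.07 and 8.02 in SCR, and 8.05, 7.85 and 7.93 in WT. It rose 2.04-fold against SCR (log2 1.03, SE 0.061, adjusted p = 0.0019), and the groups did not overlap. TGFB3, the remaining isoform, went the other way in value without passing: 6.28, 6.36 and 6.27 in KD, 6.77, 6.62 and 6.68 in SCR, and 6.87, 6.95 and 7.08 in WT (log2 -0.38, adjusted p = 1 against SCR, and -0.66, adjusted p = 0.18 against WT).

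BMP2, a ligand that induces bone formation, had the largest fall of the 46 genes against SCR, though not against WT, where ID4 and PMEPA1 fell further (log2 -3.08 and -2.85). It read 6.0, 6.24 and 6.52 in KD, 10.49, 10.42 and 10.50 in SCR, and 8.95, 8.87 and 8.88 in WT. All 3 groups were separate, with SCR above WT and WT above KD. The fall was 18.6-fold against SCR (log2 -4.22, SE 0.11, adjusted p = 7.4e-07) and 6.26-fold against WT (log2 -2.65, adjusted p = 5.5e-05). GDF15, a divergent family member that is released by stressed cells and acts through GFRAL rather than through SMADs, read 7.0, 6.64 and 6.98 in KD, 9.55, 9.56 and 9.49 in SCR, and 9.44, 9.43 and 9.36 in WT. Its fall was 6.33-fold against SCR (log2 -2.66, SE 0.089, adjusted p = 9.4e-06) and was almost the same against WT (log2 -2.54, adjusted p = 1.5e-05). INHBB, the beta B subunit of activin and inhibin, read 5.13, 5.34 and 4.77 in KD, 7.25, 7.22 and 7.37 in SCR, and 7.38, 7.27 and 7.27 in WT, and fell 4.6-fold (log2 -2.20, SE 0.12, adjusted p = 0.00087). BMP6, a BMP that also governs hepcidin in the liver, had the largest difference from SCR that did not pass: 6.51, 6.59 and 6.58 in KD against 7.18, 7.31 and 7.13 in SCR (log2 -0.65, adjusted p = 0.1). BMP4, BMP7 and INHBA, the beta A subunit of activin and inhibin, did not pass either, at 0.16, 0.02 and -0.22.

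Of 11 receptors and co-receptors, 3 rose and 1 fell. TGFBR2, the type II receptor that binds TGF-beta, read 9.49, 9.57 and 9.37 in KD, 5.50, 5.51 and 5.49 in SCR, and 5.64, 5.47 and 5.64 in WT. Its rise of 15.7-fold (log2 3.97, SE 0.066, adjusted p = 1.4e-08) was the largest of the list against SCR. TGFBR1, the type I kinase that acts with it, read 8.35, 8.46 and 8.35 in KD, 6.56, 6.69 and 6.60 in SCR, and 6.78, 6.75 and 6.65 in WT, a rise of 3.41-fold (log2 1.77, SE 0.057, adjusted p = 6.8e-06). Both kinases were thus higher on every KD array than on any control array. ACVR1, a type I receptor for BMPs and activins, read 7.14, 7.14 and 7.13 in KD, 6.40, 6.46 and 6.45 in SCR, and 6.36, 6.33 and 6.39 in WT, and rose 1.62-fold (log2 0.70, SE 0.043, adjusted p = 0.0025). This was the smallest fold change of the list that passed against SCR, and with the KD and SCR arrays alone in the fit its adjusted p was 0.052. BMPR1B, a type I receptor for BMPs, read 4.57, 4.54 and 4.51 in KD, 5.92, 5.99 and 5.96 in SCR, and 5.87, 5.95 and 5.91 in WT, and fell 2.67-fold (log2 -1.41, SE 0.047, adjusted p = 7.9e-06).

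The other 7 receptors did not pass. BMPR2, the type II receptor for BMPs, was at 9.13, 9.09 and 9.03 in KD and 9.11, 9.13 and 9.19 in SCR, and these arrays overlapped. The co-receptors ENG and TGFBR3 were at -0.02 and -0.14, and BAMBI, a decoy receptor without a kinase, at -0.11. The activin receptors differed more in value: ACVR2A and ACVR2B, which are type II, were at 0.39 and -0.36, and ACVR1B, which is type I, at -0.39 against SCR (adjusted p = 0.81) and -0.52 against WT (adjusted p = 0.065).

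Among the 8 SMADs, 1 rose and 4 fell. SMAD3, a receptor SMAD of the TGF-beta and activin branch, read 9.71, 9.72 and 9.69 in KD, 7.29, 7.27 and 7.19 in SCR, and 7.39, 7.26 and 7.28 in WT. It rose 5.49-fold (log2 2.46, SE 0.051, adjusted p = 1.2e-07), whereas SMAD2, its partner in that branch, was at 0.14 and overlapped. SMAD9, also called SMAD8, belongs to the BMP branch and read 6.72, 6.66 and 6.79 in KD, 9.24, 9.33 and 9.21 in SCR, and 8.76, 8.73 and 8.63 in WT. It fell 5.81-fold against SCR (log2 -2.54, SE 0.059, adjusted p = 2.9e-07) and by 1.99 on the log2 scale against WT (adjusted p = 2.9e-06). SMAD1 and SMAD5, the other receptor SMADs of the BMP branch, did not pass at -0.15 and -0.40.

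SMAD4, the common partner of both branches, read 8.37, 8.43 and 8.34 in KD, 9.09, 9.14 and 9.20 in SCR, and 9.19, 9.23 and 9.12 in WT, a fall of 0.77 on the log2 scale (SE 0.053, adjusted p = 0.0071). The inhibitory SMADs, which block the receptor and are themselves induced by the pathway, fell against SCR but not against WT. SMAD7, the inhibitor of both branches, read 6.33, 6.15 and 6.31 in KD, 7.21, 7.19 and 7.17 in SCR, and 6.94, 6.81 and 6.84 in WT (log2 -0.92, SE 0.062, adjusted p = 0.0051 against SCR, and -0.60, adjusted p = 0.24 against WT). SMAD6, the inhibitor chiefly of the BMP branch, read 6.71, 6.74 and 6.58 in KD, 7.45, 7.58 and 7.38 in SCR, and 7.13, 7.14 and 7.06 in WT (log2 -0.79, SE 0.067, adjusted p = 0.041 against SCR, and -0.43, adjusted p = 1 against WT). For both inhibitors the KD arrays lay below WT and the WT arrays below SCR, with no overlap. These 3 calls against SCR were the least firm of the list together with that of TGIF1. SMAD6 was lost whichever 1 of the 9 arrays was left out (adjusted p = 0.11 to 0.37), SMAD7 without SCR array 1, 2 or 3 (adjusted p up to 0.068), and SMAD4 without KD array 1 or 3 or SCR array 2 or 3 (adjusted p up to 0.099). Against WT, SMAD4 (adjusted p = 0.0047) was lost without KD array 1 or 3 or WT array 1 or 2 (adjusted p up to 0.07).

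Among 6 intracellular regulators, 2 rose and 1 fell. PMEPA1, a membrane protein that sequesters receptor SMADs and is induced by TGF-beta, read 7.26, 7.19 and 7.19 in KD, 10.05, 10.05 and 10.00 in SCR, and 10.06, 10.06 and 10.05 in WT. Its fall of 7.06-fold (log2 -2.82, SE 0.044) had the smallest p of the list, 8.1e-09, with SCR and WT almost at the same level. SMURF2, a ubiquitin ligase for SMADs and receptors, read 9.90, 9.83 and 9.80 in KD, 8.88, 8.90 and 8.95 in SCR, and 8.84, 8.86 and 8.77 in WT, and rose by 0.93 (SE 0.05, adjusted p = 0.00068). TGIF1, a homeobox co-repressor of SMAD2 and SMAD3, read 7.15, 7.04 and 7.12 in KD, 6.29, 6.41 and 6.32 in SCR, and 6.48, 6.45 and 6.44 in WT, and rose by 0.76 (SE 0.052, adjusted p = 0.0059). That call was lost without KD array 1 or 3 or SCR array 1 or 3 (adjusted p up to 0.082), and its call against WT (0.65, adjusted p = 0.026) whichever 1 of the 9 arrays was left out (adjusted p = 0.053 to 0.29). SMURF1, the related ligase, and the co-repressors SKI and SKIL did not pass, at 0.15, -0.08 and -0.48.

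All 5 target genes of the list passed against both controls, 4 of them downward. The ID genes encode helix-loop-helix proteins that cannot bind DNA themselves and are classical targets of the BMP branch, and TGFBI encodes a matrix protein named for its induction by TGF-beta. ID4 read 5.80, 5.79 and 5.41 in KD, 8.76, 8.77 and 8.77 in SCR, and 8.79, 8.78 and 8.66 in WT, a fall of 8.59-fold (log2 -3.10, SE 0.097, adjusted p = 4.8e-06). ID3 read 6.33, 6.60 and 6.52 in KD, 8.85, 8.90 and 8.77 in SCR, and 8.78, 8.77 and 8.58 in WT, a fall of 5.11-fold (log2 -2.35, SE 0.083, adjusted p = 1.4e-05). Both were lower on every KD array than on any control array.

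ID2 read 5.48, 5.78 and 5.81 in KD, 7.71, 7.78 and 7.85 in SCR, and 7.99, 7.99 and 7.94 in WT, and fell 4.27-fold (log2 -2.09, SE 0.085, adjusted p = 5.3e-05). ID1, which had the smallest fall of the 4, read 9.14, 9.03 and 9.07 in KD, 10.32, 10.31 and 10.27 in SCR, and 10.26, 10.26 and 10.27 in WT, and fell 2.34-fold (log2 -1.22, SE 0.046, adjusted p = 2.9e-05). TGFBI was the exception in direction. It read 7.23, 7.39 and 7.32 in KD, 5.45, 5.55 and 5.47 in SCR, and 5.43, 5.40 and 5.44 in WT, and rose 3.54-fold (log2 1.83, SE 0.054, adjusted p = 3e-06).

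The DNA just before the start of 6 of these genes is given because the 4 ID genes all fell, TGFB2 was the ligand that rose most, and SMAD6 alone held the palindrome named below: 250 bases upstream of the start, 5′ to 3′ on the gene's strand, from RefSeq on GRCh38.p14. Capitals mark CAGAC, a pentamer that SMAD3 and SMAD4 bind, or the palindrome GTCTAGAC, which joins AGAC, the core of that pentamer, to its reverse complement and holds no CAGAC itself. The windows are chr20:31605039-31605288 on the plus strand, chr2:8681806-8682055 plus, chr1:23559502-23559751 minus, chr6:19837120-19837369 plus, chr15:66701986-66702235 plus and chr1:218345086-218345335 plus.
ID1: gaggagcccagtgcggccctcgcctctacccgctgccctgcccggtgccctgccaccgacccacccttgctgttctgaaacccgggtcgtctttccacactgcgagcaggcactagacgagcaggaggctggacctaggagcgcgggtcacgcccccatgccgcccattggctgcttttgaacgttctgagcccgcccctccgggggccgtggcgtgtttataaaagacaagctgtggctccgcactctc
ID2: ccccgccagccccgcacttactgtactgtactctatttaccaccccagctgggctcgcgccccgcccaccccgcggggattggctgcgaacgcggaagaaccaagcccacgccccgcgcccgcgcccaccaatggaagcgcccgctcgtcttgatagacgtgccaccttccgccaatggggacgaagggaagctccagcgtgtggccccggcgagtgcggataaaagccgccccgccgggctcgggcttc
ID3: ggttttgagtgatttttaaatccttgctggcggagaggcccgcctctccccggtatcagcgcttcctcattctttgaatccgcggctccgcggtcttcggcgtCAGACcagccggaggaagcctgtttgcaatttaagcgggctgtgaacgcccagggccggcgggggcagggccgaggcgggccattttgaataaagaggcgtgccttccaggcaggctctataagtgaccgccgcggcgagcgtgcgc
ID4: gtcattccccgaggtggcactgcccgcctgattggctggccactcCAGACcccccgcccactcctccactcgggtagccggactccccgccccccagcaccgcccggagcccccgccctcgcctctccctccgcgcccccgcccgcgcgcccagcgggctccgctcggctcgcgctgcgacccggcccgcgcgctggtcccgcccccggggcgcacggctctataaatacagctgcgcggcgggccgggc
SMAD6: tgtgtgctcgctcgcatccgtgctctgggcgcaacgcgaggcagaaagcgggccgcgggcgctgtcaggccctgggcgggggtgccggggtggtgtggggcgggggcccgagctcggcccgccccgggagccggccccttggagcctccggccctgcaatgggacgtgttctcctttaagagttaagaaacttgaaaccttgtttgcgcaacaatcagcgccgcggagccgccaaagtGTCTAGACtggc
TGFB2: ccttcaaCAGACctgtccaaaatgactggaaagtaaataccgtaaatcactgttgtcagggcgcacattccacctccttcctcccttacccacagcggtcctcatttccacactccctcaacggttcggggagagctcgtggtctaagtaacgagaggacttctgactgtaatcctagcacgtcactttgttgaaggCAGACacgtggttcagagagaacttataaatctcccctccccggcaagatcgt
ID1 and ID2 held 0 of either motif in these letters, ID3 and ID4 1 CAGAC each, TGFB2 2, and SMAD6 1 palindrome a few bases before its start. Searched on both strands, CAGAC, whose other strand reads GTCTG, was in 34 of the 82 promoter windows that RefSeq lists for 42 of the 46 genes, or 41.5%, against 38.0% of 35116 windows of all genes. Windows of genes that rose held it in 12 of 29, those of genes that fell in 8 of 19 and those of genes that did not pass in 14 of 34. GGCGCC, a GC-rich palindrome that BMP-branch SMADs can bind, was in 18 of 82 windows, or 22.0%, against 16.4% of all. It was in 4 of 29 windows of genes that rose, 3 of 19 of genes that fell and 11 of 34 of genes that did not pass. GTCTAGAC was in 1 of 82, that of SMAD6, and in 64, or 0.182%, of all. The 6 windows printed above held 0 GGCGCC. A gene with several starts has several windows, and a match is a run of letters, not a bound site. DNA beyond these windows was not searched, so a window without a motif does not show that the gene lacks one.

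None of the 6 latency proteins and extracellular antagonists passed against either control. LTBP1, LTBP2 and LTBP3, matrix proteins of a family named for binding latent TGF-beta, were at -0.06, 0.14 and 0.34 in KD against SCR. NOG and GREM1, which bind BMPs outside the cell, were at 0.27 and -0.06, and FST, which binds activins, at 0.09. LTBP3 had the largest of these differences: 8.04, 8.04 and 8.09 in KD against 7.72, 7.70 and 7.73 in SCR, where the arrays did not overlap. NOG, FST and INHBA were dim in all 3 groups, with no group mean reaching 5.47.

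**Figure D2:**
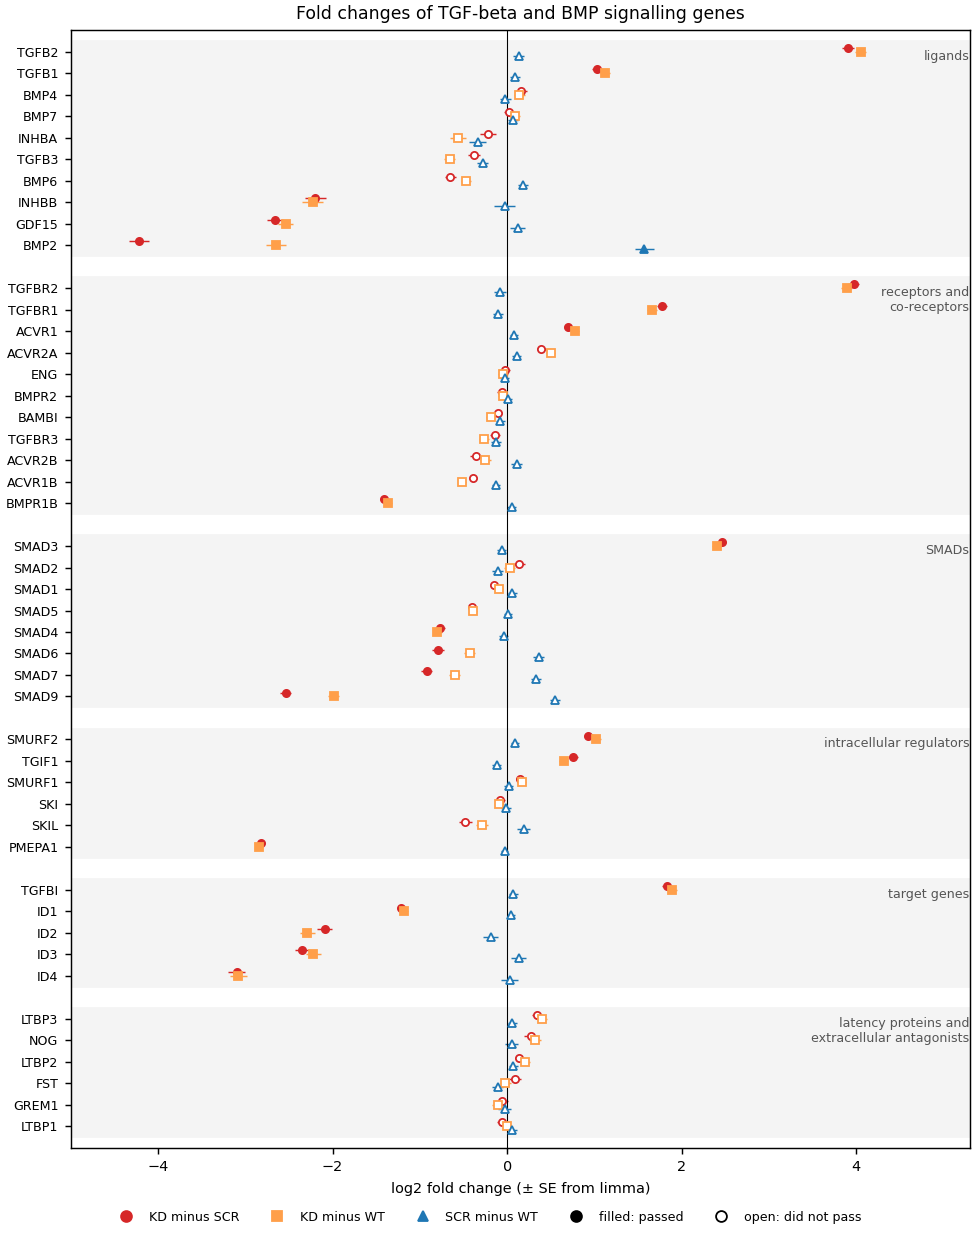
Log2 fold change (horizontal axis) of each gene with its SE from limma, for KD minus SCR (red circles), KD minus WT (orange squares) and SCR minus WT (blue triangles). Filled symbols passed the Bonferroni threshold and open ones did not. The red and orange symbols are farthest apart for BMP2, at -4.22 and -2.65, which is also the gene with a filled triangle, and they part for SMAD9, at -2.54 and -1.99, and for SMAD6 and SMAD7, which passed against SCR alone.

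The comparison of SCR with WT asks what transfection with a scramble shRNA and selection came with. Of the 46 genes, 1 was higher in SCR and 0 lower, where 0.141% of all transcripts were higher and 0.074% lower (0.215% in all), and 0.276% and 0.174% of genes (0.45% in all). The gene was BMP2, at 1.57 (adjusted p = 0.0065). Its call was lost whichever 1 SCR or WT array was left out (adjusted p up to 0.1) while the fold change stayed between 1.56 and 1.59. The other 45 genes ranged from -0.34 to 0.55. SMAD9, SMAD6 and SMAD7 were at 0.55, 0.36 and 0.33 and did not pass, though with Benjamini-Hochberg adjustment over all transcripts their p was 0.0012, 0.029 and 0.031. At an unadjusted p under 0.05, 6 genes were higher in SCR and 5 lower, where 6.24% and 5.55% of all transcripts were. BMP2 and these 3 SMADs thus had their highest level in SCR and their lowest in KD, and their fold changes were smaller against WT than against SCR.

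A wider set of 104 pathway genes was used to see how far the pattern reached, and 96 of them were measured. In KD against SCR 10 were higher and 8 lower, 18.8% in all against 15.4% of genes, and in KD against WT 12 and 7. Among 21 further ligands 0 passed against SCR. Of 8 further receptors and co-receptors, CD109, a co-receptor that restrains TGF-beta signalling, rose by 1.96 (SE 0.058, adjusted p = 2.9e-06). Of 20 antagonists and activators 3 rose and 1 fell. THBS1, thrombospondin-1, which can activate latent TGF-beta, averaged 10.59 in KD against 7.13 in SCR and 6.66 in WT and rose by 3.46 (SE 0.055, adjusted p = 9.5e-09). It is also among the genes chosen as typical of less luminal prostate cancer lines. TWSG1, a BMP-binding protein, rose by 1.21 and BMP1, a protease that processes matrix and latency proteins, by 0.82. ITGB8, an integrin subunit that activates latent TGF-beta, fell by 0.88.

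Of 19 further intracellular regulators 3 rose and 2 fell. NEDD4L, a ubiquitin ligase that targets activated SMAD2 and SMAD3, averaged 8.69 in KD against 10.79 in SCR and 10.49 in WT and fell by 2.10 (SE 0.054, adjusted p = 8e-07). WWP1, a related ligase, rose by 0.94, FKBP1A, which holds the type I receptor inactive, by 0.86, and SNW1, a SMAD co-activator, by 0.55, while TGIF2, the paralog of TGIF1, fell by 0.57. The calls of SNW1 and TGIF2 were lost whichever 1 array was left out (adjusted p = 0.09 to 0.53 and 0.094 to 0.39).

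Further target genes did not share 1 direction. Of 16 genes known as TGF-beta targets, 3 rose and 2 fell. BHLHE40, a transcriptional repressor, rose by 1.64 (SE 0.06, adjusted p = 2e-05), CCN2, connective tissue growth factor, by 1.26, and LMCD1, a LIM protein, by 0.87. ANGPTL4, a lipase inhibitor, fell by 1.09 and CDKN1A, the p21 cell-cycle inhibitor, by 0.77. Of 12 genes known as BMP targets, 0 rose and 3 fell against SCR: HES1 and HEY1, repressors that also serve Notch signalling, by 1.70 and 0.74, and GATA2, a transcription factor, by 1.52. The calls of CCN2, LMCD1, CDKN1A and HEY1 were lost with some arrays left out: CCN2 without KD array 2 or SCR array 1 or 3 (adjusted p up to 0.07), LMCD1 without KD array 3 or any SCR array (adjusted p up to 0.093), CDKN1A without KD array 1 or 3 or any SCR array (adjusted p up to 0.12), and HEY1 without each array but KD array 2 (adjusted p up to 0.19). Each kept its direction. Those losses are of calls against SCR. Against WT, 1 of the 12 BMP targets rose and 2 fell, and HEY1 did not pass (adjusted p = 0.059). The gene that rose against WT, by 0.87 (adjusted p = 0.038), was at 0.73 against SCR without passing (adjusted p = 0.17). Over all genes 7.78% were higher and 7.6% lower against SCR, and 7.83% and 7.45% against WT. A count of 0 or 1 rise among 12 genes is near those shares and is no result about BMP targets.

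**Figure D3:**
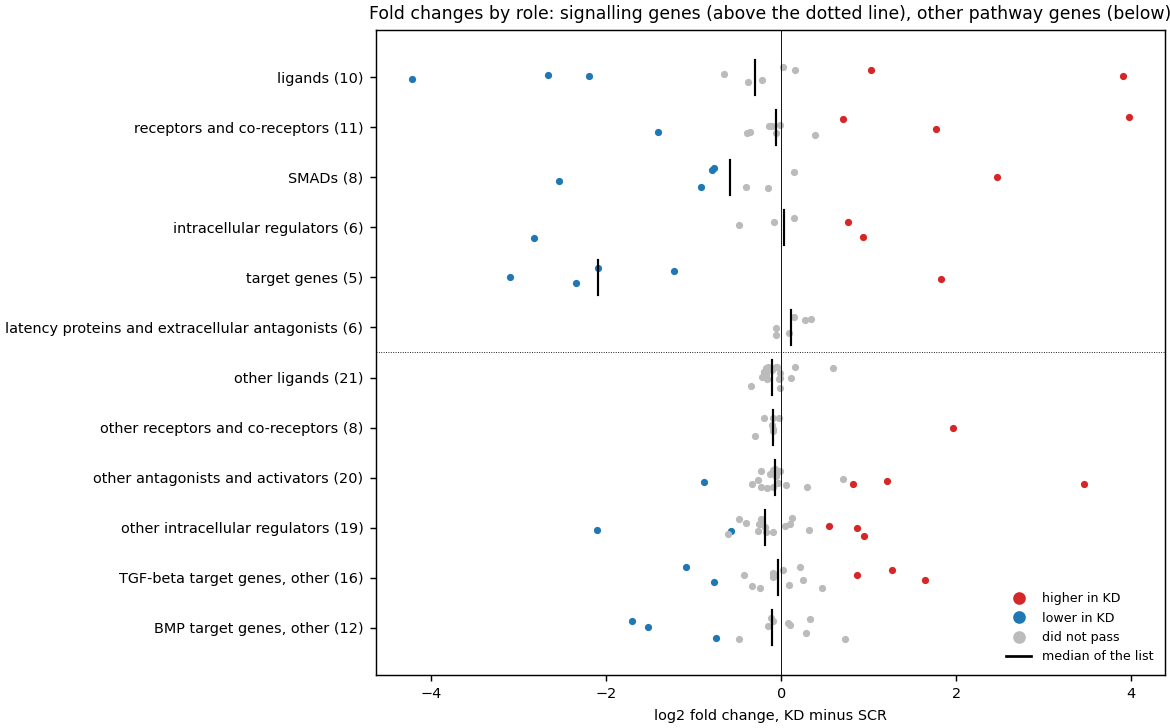
Log2 fold change of KD against SCR (horizontal axis) for every measured gene, by role, with the 46 signalling genes above the dotted line and the 96 further pathway genes below it. Points are genes, coloured by whether they passed, and black bars are medians. The target genes have their median at -2.09 and the further lists have medians between -0.19 and -0.04.

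Genes next to each other on a chromosome were also compared, as a description with no test. For each signalling gene, the median fold change of KD against SCR was taken over up to 25 genes on each side with a mean level of at least 7. These medians ranged from -0.70 to 0.76, against a median of -0.05 over all such genes. SMAD4, on chromosome 18, was at -0.77 and its neighbours at -0.70. SMAD7 and SMAD2 lie on the same chromosome among neighbours at -0.62, and were at -0.92 and 0.14. TGIF1, near the end of that chromosome with 12 genes before it, was at 0.76 and its neighbours at 0.75. ACVR1, on chromosome 2, was at 0.70 and its neighbours at 0.51. These 4 were the genes that passed among neighbours beyond 0.3 in either direction. TGFBR1, at 1.77 among neighbours at 0.26, and BMPR1B, at -1.41 among neighbours at -0.20, also shared their neighbours' sign but lay far beyond them. BMP4, on chromosome 14, lay among neighbours at 0.76 and did not pass at 0.16. Of the genes with the largest changes, TGFB2 and TGFBR2 lay among neighbours at -0.04 and BMP2 among neighbours at -0.12. PMEPA1 and ID4, which fell, lay among neighbours at 0.21 and 0.16, of the other sign. The further pathway genes were not set beside their neighbours, though TWSG1 and NEDD4L also lie on chromosome 18 and SNW1 on chromosome 14. The part of neighbouring genes in the fold changes of either set was not tested.

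**Figure D4:**
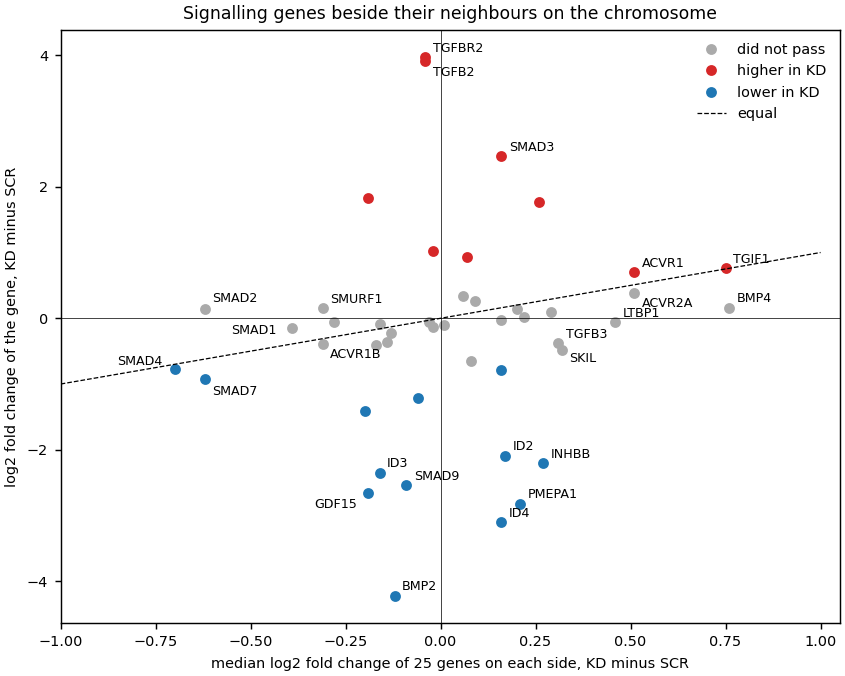
Log2 fold change of each signalling gene in KD against SCR (vertical axis) beside the median of up to 25 genes on each side (horizontal axis). Points are genes, coloured by whether they passed, and the dashed line marks equal values. SMAD4, TGIF1 and ACVR1 lie near that line, at -0.77, 0.76 and 0.70, while TGFBR2, TGFB2 and BMP2 lie far from it.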

How the data were processed

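RNA of 22Rv1 cells was hybridised to 9 Affymetrix Human Transcriptome Array 2.0 chips, 3 each of KD, SCR and WT. The authors normalized the arrays by RMA, with Expression Console and Transcriptome Analysis Console 3.0 named in the processing notes, and the deposited values are log2 intensities. They were not transformed again. The number of arrays limits the precision.

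Of 70523 probe sets, 67528 transcript clusters were tested. A gene stands for its brightest transcript that carries its symbol alone. Symbols were compared with a RefSeq gene table of GRCh38.p14, which changed 0 of them and gave the gene order. A linear model with a mean for each group was fitted to all 9 arrays in limma 3.58.1 (R 4.3.3) and moderated with eBayes (6 residual and 3.34 prior degrees of freedom). The study's methods name a one-way ANOVA with the same Bonferroni correction. On simulated data for KD against SCR with 67528 transcripts, a log2 change of 0.5 was found in 3 of 50 cases, of 1 in 37 of 50, of 2 in 48 of 50 and of 4 in 49 of 50.

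The signalling genes and all other lists were chosen with earlier results of these data known. Every signalling gene may be named. From each further list, up to 3 genes with the highest and 3 with the lowest fold change of KD against SCR among those that passed were named. Alternatives covered Benjamini-Hochberg adjustment, a fold minimum of 2, the methods' ANOVA, centred or quantile-normalized arrays, removal of dim transcripts (35845 reached a group mean of 5.47), the compared groups alone, a trended and robust variance, the mean of a gene's transcripts, the array number as a block and each array left out. The same alternatives for the further pathway genes were chosen after seeing the data.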

Additional observations from a re-analysis of the deposited data

How the results depend on the processing

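The directions of all calls among the 46 signalling genes held under every alternative run. The cause was not tested except where a setting's own construction shows it. With the methods' ANOVA and Bonferroni correction, which takes the spread from each transcript alone and only from the arrays of the compared groups, 2 genes were higher and 1 lower in KD than SCR (TGFBR2, SMAD3 and PMEPA1), 2 and 1 in KD than WT, and 0 higher in SCR than WT; among the further pathway genes it gave 2 and 1, and 1 and 0. With Benjamini-Hochberg adjustment 13 were higher and 20 lower in KD than SCR, 14 and 22 in KD than WT, and 4 higher in SCR than WT, and among the further genes 19 and 30, 21 and 29, and 3. A fold minimum of 2 left 5 and 4 further genes against SCR (2.49% and 2.83% of all transcripts) and 6 and 3 against WT (2.52% and 2.7%). With the compared groups alone, 5 further genes were lower in KD than SCR (2.96% of all transcripts) and 6 higher in KD than WT (2.54%), and ACVR1, SMAD4, SMAD6, SMAD7 and TGIF1 no longer passed against SCR. Centring gave SMAD6 adjusted p = 0.2 and quantile normalization 0.16. The mean of a gene's transcripts, which tests 22468 genes in place of 67528 transcripts, gave 2 higher in SCR than WT and 11 further genes lower in KD than WT.

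Same-numbered arrays deviated from their group means with correlations of -0.02 to 0.16, and others of -0.21 to 0.09. All were small and the ranges overlapped, though the highest values, 0.16 and 0.13, were of same-numbered arrays. Whether the numbers mark a shared batch was not tested. With the array number as a replicate block, 6 genes were higher and 12 lower in KD than SCR, 8 and 10 in KD than WT, and 0 higher in SCR than WT, where 2.7% and 3% of all transcripts were called against SCR and 2.68% and 2.78% against WT. Among the further genes 5 were lower in KD than SCR and 7 higher in KD than WT. TGFB1 (adjusted p = 0.067), ACVR1 (0.063), SMAD4 (0.12) and TGIF1 (0.15) did not pass against SCR with the block.

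With each array left out in turn, 8 to 9 genes were higher and 10 to 12 lower in KD than SCR, 8 to 9 and 10 to 11 in KD than WT, and 0 to 1 higher in SCR than WT. Among the further genes the ranges were 7 to 9 and 5 to 7 against SCR, and 8 to 9 and 5 against WT.

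Some fold changes near 0 that did not pass changed sign. Under centring these were, in KD against SCR, BMPR2 (0.00), ENG (0.05), LTBP1 (0.00) and GREM1 (0.00), in KD against WT BMPR2 (0.02), ENG (0.02), LTBP1 (0.07) and FST (0.05), and in SCR against WT SKI (0.00). Under quantile normalization they were ENG (0.07), LTBP1 (0.01) and GREM1 (0.00), then ENG (0.03), LTBP1 (0.08) and FST (0.05), and in SCR against WT BMPR2 (-0.01) and SMAD5 (0.00). With arrays left out, BMP7 ranged from -0.01 to 0.07 and ENG from -0.03 to 0.01 in KD against SCR, and FST from -0.08 to 0.03, LTBP1 from -0.04 to 0.03 and SMAD2 from -0.03 to 0.07 in KD against WT. In SCR against WT the ranges were -0.05 to 0.03 for BMP4, -0.02 to 0.04 for BMPR2, -0.08 to 0.01 for ENG, -0.11 to 0.03 for GREM1, -0.01 to 0.05 for ID4, -0.07 to 0.01 for INHBB, -0.01 to 0.10 for NOG, -0.05 to 0.04 for SKI and 0.00 to 0.02 for SMAD5.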
